A study of Homo sapiens with 3 samples.

Results

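The HOX genes measured here are those of the HOXA, HOXB, HOXC and HOXD clusters, chosen by their symbol alone. Of 39 such genes in the RefSeq gene table, 26 were listed in at least 1 of the 3 HCC libraries, out of 16149 genes listed in all. The parent listed 23 of them, subclone 1 listed 26 and subclone 2 listed 24. The other 13 (HOXA9, HOXB1, HOXB2, HOXB13, HOXC12, HOXC13, HOXD4, HOXD8, HOXD9, HOXD10, HOXD11, HOXD12 and HOXD13) were not listed in the files analysed here and were taken as 0.

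The RNA came from 3 cell lines grown in DMEM and was made into libraries with a TruSeq RNA kit, 1 library per cell line. All 3 are labelled HCCLM3, a human hepatocellular carcinoma (HCC) line. The parent carries the label of a poorly metastatic line, subclone 1 that of a more metastatic line with tropism for the lung, and subclone 2 that of a line with tropism for lung as well as celiac lymph node. According to the study's methods the parental cells are HCCLM3-R, which express red fluorescent protein and are described there as highly metastatic, unlike in the label, and each monoclonal line was grown from a single cell, so a subclone stands for a single clone. The sources used here do not say which of these lines were sequenced. With 1 library per line, every value below compares libraries and not conditions, and no p-value was computed.

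HOX genes code for transcription factors that bind DNA through a homeodomain. They lie in 4 clusters in which the order of the genes follows the order of their expression along the body axis, low-numbered genes at the 3′ end and high-numbered genes at the 5′ end, and genes with the same number in different clusters are paralogs. HOX proteins often bind DNA together with TALE homeodomain proteins of the PBX and MEIS families, Polycomb and Trithorax complexes hold their silent and active states, and retinoic acid induces many of the 3′ genes in the embryo.

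In the GENCODE 29 annotation of GRCh38 the HOXA genes lie on chromosome 7 on the minus strand, and the HOXB genes on chromosome 17 between 48528526 and 48729178 on the minus strand. The HOXC genes lie on chromosome 12 between 53938765 and 54056030 and the HOXD genes on chromosome 2 between 176092891 and 176190907, both on the plus strand. The deposited values were made on hg19, according to the submitters' processing notes, so these positions serve only to place the genes.

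The RefSeq promoter table (GRCh38.p14) held 1 or more windows, from 250 bases before to 50 after a gene's start, for 20 of the 39 genes. The windows of HOXA2 and HOXA13 are shown because these were the HOXA genes whose levels differed between libraries by more than counting error, and the window of HOXC4 and HOXC5 because both genes have the same one. CpG dinucleotides are in capitals, and sequences are given 5′ to 3′ on the strand of the gene.
HOXA2, chr7:27102634-27102933, minus strand, 11 CpG: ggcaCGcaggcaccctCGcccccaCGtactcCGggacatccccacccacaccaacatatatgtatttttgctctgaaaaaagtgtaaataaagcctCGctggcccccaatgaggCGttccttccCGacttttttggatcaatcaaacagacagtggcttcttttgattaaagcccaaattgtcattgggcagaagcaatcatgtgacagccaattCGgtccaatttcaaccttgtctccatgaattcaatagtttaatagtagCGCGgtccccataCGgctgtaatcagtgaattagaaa
HOXA13, chr7:27200042-27200341, minus strand, 44 CpG: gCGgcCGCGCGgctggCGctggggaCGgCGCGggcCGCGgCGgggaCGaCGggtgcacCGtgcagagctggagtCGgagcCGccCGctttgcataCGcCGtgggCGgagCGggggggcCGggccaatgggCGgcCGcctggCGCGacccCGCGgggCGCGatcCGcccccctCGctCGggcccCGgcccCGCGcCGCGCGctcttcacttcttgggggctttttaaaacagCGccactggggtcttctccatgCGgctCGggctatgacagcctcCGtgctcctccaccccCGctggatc
HOXC4 and HOXC5, chr12:54016638-54016937, plus strand, 15 CpG: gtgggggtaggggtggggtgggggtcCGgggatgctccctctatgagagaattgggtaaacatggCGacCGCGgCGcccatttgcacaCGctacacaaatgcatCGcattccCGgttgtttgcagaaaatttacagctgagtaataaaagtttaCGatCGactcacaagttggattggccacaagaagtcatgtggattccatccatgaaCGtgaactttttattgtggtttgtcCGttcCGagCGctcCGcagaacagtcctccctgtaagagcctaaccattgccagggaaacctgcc
The HOXA13 window had the most CpG of the 26 distinct HOX windows, which held 0 to 44 each. Their median was 22.5 CpG, against 14 in the 34943 windows of all genes. It was 23 in the 18 windows of listed genes and 22.5 in the 8 windows of genes not listed. Several of the windows of listed genes are those of HOXA3 alone, including that with 0 CpG, and no listed HOXB gene has a window. The letters TATAAA, searched on both strands, occurred in 5 of the 26 windows (19.2%) and in 11.6% of all windows. The letters TGATTNAT, which HOX and PBX proteins are known to bind as a pair, occurred on either strand in 2 windows (7.69%), those of HOXA2 and HOXD11, and in 2.82% of all windows.

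The authors deposited RPKM, which is a read count divided by gene length and library size. Whole numbers of reads were recovered from these values, and the library totals were 4488825 reads (parent), 4609696 (subclone 1) and 4725150 (subclone 2). The 26 HOX genes held 664, 804 and 833 of these reads. Intervals given here are exact 95% intervals of the reads. They cover counting error only, and they were not adjusted for the number of genes. Of the 26 genes, 12 had a mean of at least 1 RPKM over the libraries, from HOXA6 with 1.44 upwards.

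**Figure D1:**
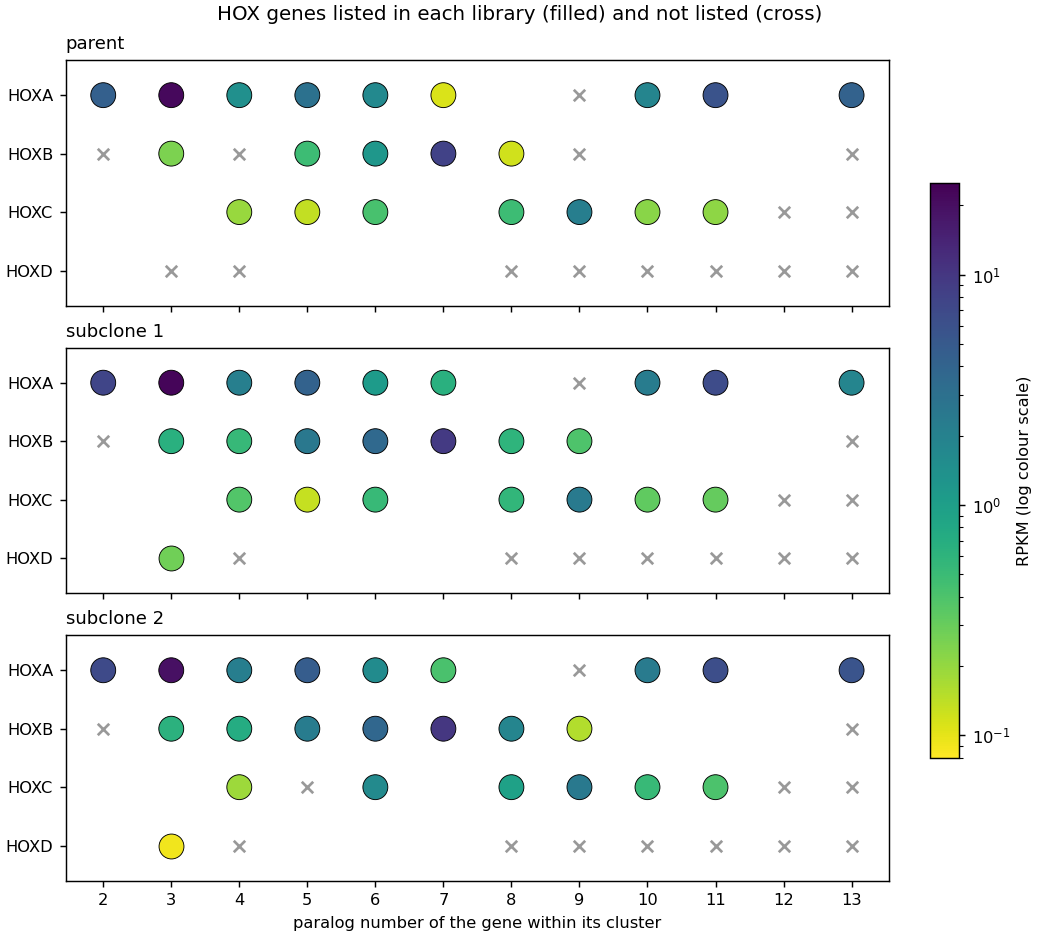
Level of each HOX gene in the parent (P), subclone 1 (S1) and subclone 2 (S2), in RPKM on a colour scale, with clusters in rows and paralog numbers 2 to 13 in columns. HOXA3 holds the highest level in each library, paralog group 12 is empty and the HOXD row holds only HOXD3, in subclone 1 and subclone 2.

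The cells of all 3 libraries carried RNA mainly of the HOXA cluster. The HOXA genes made up 76.2% of the summed RPKM of all HOX genes in the parental library, and 68.9% and 66.2% in those of subclone 1 and subclone 2. The HOXB genes made up 17%, 24.1% and 25.6%, and the HOXC genes 6.45%, 6.28% and 8.01%. The HOXD share stayed at 0.679% or below. Listed genes numbered 10 of 11 in HOXA, 7 of 10 in HOXB, 7 of 9 in HOXC and 2 of 9 in HOXD.

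HOXA3, a 3′ gene of its cluster, was the highest HOX gene in each library. It had 22.2, 22.9 and 19.7 RPKM in the parent, subclone 1 and subclone 2 (339, 359 and 316 reads). Even so, 21.5% of all listed genes had a higher mean. Exons of HOXA3 overlap HOXA-AS2 and HOXA-AS3 on the other strand, and neither of these was listed. Of its annotated sequence, 8.03% in stretches of 50 bases occurred in another gene. Whether counting used the strand is not given in the sources used here, so part of its reads may belong to these genes. The second gene was HOXB7, with 8.09, 9.45 and 10.1 RPKM (50, 60 and 66 reads). HOXA3 exceeded HOXB7 beyond counting error in all 3 libraries. Further down the order, neighbours differed beyond counting error in no case in the parent, for HOXA11 over HOXA5 in subclone 1, and for HOXB7 over HOXA2 in subclone 2. By paralog number, all genes of groups 3, 5, 6 and 7 were listed, none of group 12 was, and HOXA13 was the sole listed gene of group 13.

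**Figure D2:**
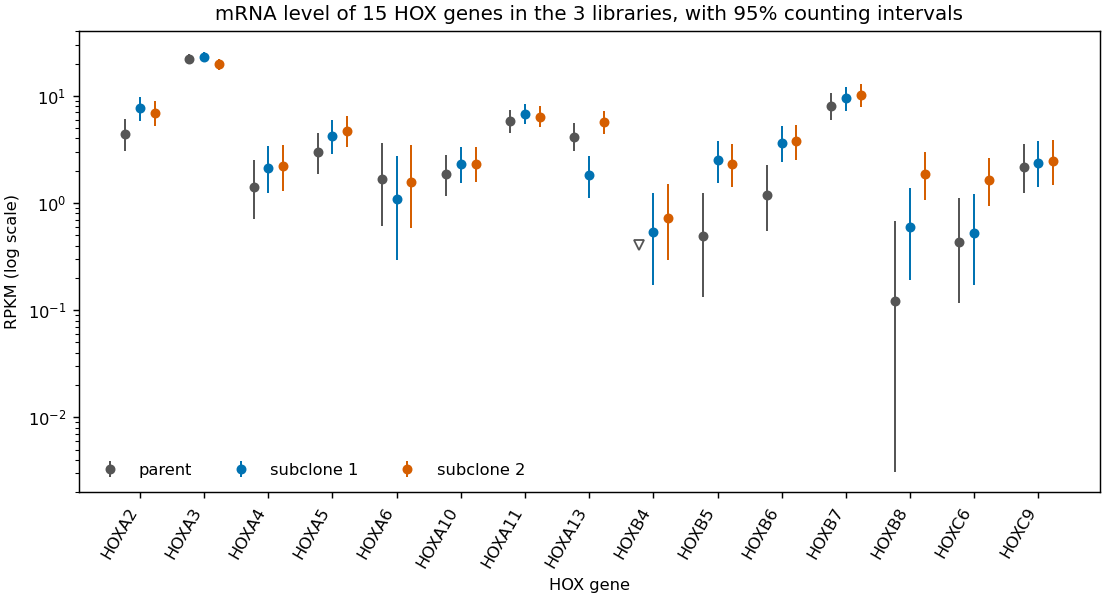
Level of 15 HOX genes in the 3 libraries, in RPKM on a log scale, with exact 95% Poisson intervals of the reads as bars. HOXA3 stands above HOXB7 in each library, HOXA13 is lower in subclone 1 (1.81 RPKM) than in the parent (4.16) and subclone 2 (5.64), and HOXB5 and HOXB6 are lower in the parent than in both subclones.

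Compared with the parent, subclone 1 had 2 HOX genes at least 2-fold higher (HOXB5 and HOXB6) and 1 at least 2-fold lower (HOXA13) among the 12 genes with a mean of at least 1 RPKM. These are 16.7% and 8.33% of the 12 genes, against 4.9% higher and 1.82% lower among the 11370 genes past the same filter. Subclone 2 compared with the parent had the same 2 genes higher and 0 lower, against 5.33% and 2.16% of the 11370 genes. Between the subclones, HOXA13 was at least 2-fold higher in subclone 2 and 0 genes were lower, against 1.42% and 1.39%. With so few genes these shares rest on 1 or 2 genes each.

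Without the filter, 8 of the 26 listed genes (30.8%) reached a 2-fold increase from the parent to subclone 1, against 9.43% of the 16149 genes, and 1 a 2-fold decrease, against 5.47%. From the parent to subclone 2 the increases numbered 8 and the decreases 2, against 9.62% and 5.83%. From subclone 1 to subclone 2 they numbered 3 and 2, against 5.21% and 5.59%. Of the increases from the parent to subclone 1, those of HOXB5 and HOXB6, which pass the filter, stood clear of counting error. Those of HOXA7, HOXB3, HOXB4, HOXB8, HOXB9 and HOXD3 did not. Among the genes that the filter had left out, the fold stood clear of it for HOXB4, HOXB8 and HOXC6 in subclone 2 over the parent. In subclone 2 over subclone 1 it did so for HOXB8 and HOXC6.

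Counting error alone can be read from the intervals of the folds, over the 15489 genes with recovered reads. In subclone 1 over the parent, the interval lay above 1 for 3 HOX genes (HOXA2, HOXB5 and HOXB6), or 11.5% of the 26, against 15.3% of all genes. It lay below 1 for HOXA13, against 14% of all genes. In subclone 2 over the parent it lay above 1 for 6 (HOXA2, HOXB4, HOXB5, HOXB6, HOXB8 and HOXC6), or 23.1%, against 17.4% of all genes, and below 1 for 0, against 13.3%. In subclone 2 over subclone 1 it lay above 1 for HOXA13, HOXB8 and HOXC6 (11.5%), against 8.74%, and below 1 for 0, against 6.53%. All genes include many with far more reads than the HOX genes, and the more reads a gene has, the smaller the fold its interval can separate from 1.

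The median log2 ratio of the 12 genes, taken on RPKM plus 0.1, was 0.26 in subclone 1 over the parent, 0.38 in subclone 2 over the parent and 0.04 between the subclones. The medians of the 11370 genes were 0.0043, 0.04 and 0.03. Above 0 lay 10, 10 and 8 of the 12 genes, against 50.4%, 53.5% and 56.5% of all. Both comparisons with the parent use the same parental library, so they are not independent of each other. Summed over the 26 genes, HOX reads per library total were 1.18-fold (95% interval 1.06 to 1.31) as high in subclone 1 and 1.19-fold (1.07 to 1.32) in subclone 2 as in the parent.

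**Figure D3:**
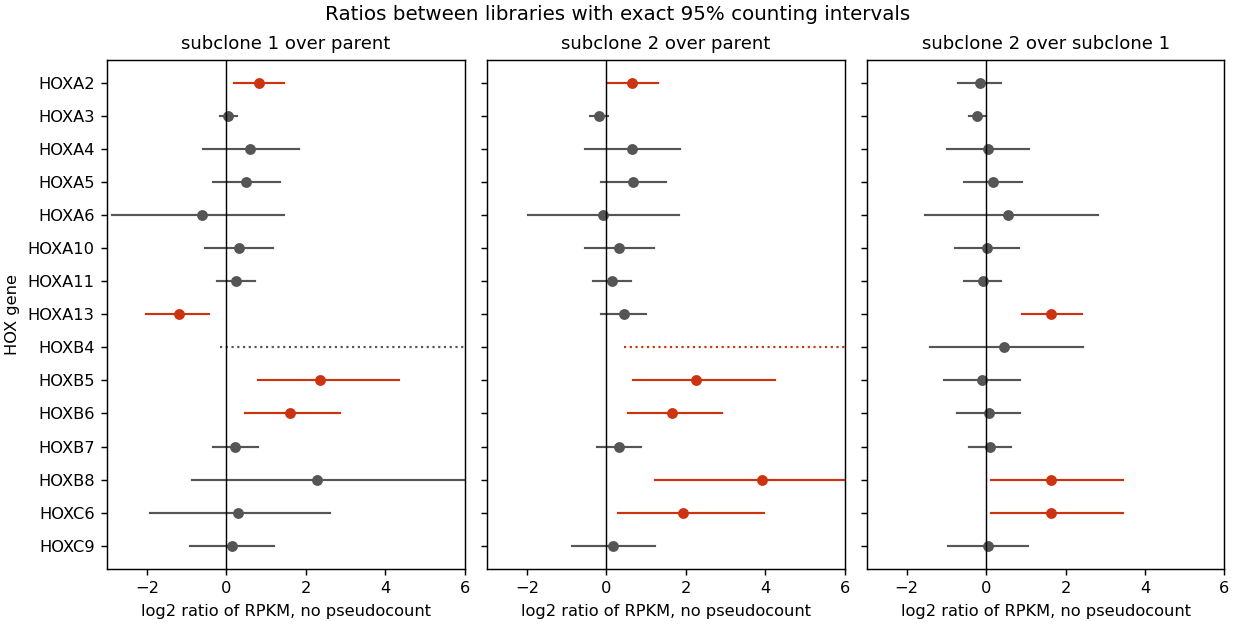
log2 ratio of RPKM, without pseudocount, of 15 HOX genes for subclone 1 over the parent, subclone 2 over the parent and subclone 2 over subclone 1, with exact 95% intervals of the reads as bars, red where the interval excludes 0, dotted with no point for HOXB4 over a parent at 0 reads, and running off the axis where too wide. HOXB5 and HOXB6 lie above 0 in both comparisons with the parent, and HOXA13 lies below 0 in subclone 1 over the parent and above 0 in subclone 2 over subclone 1.

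The HOXA cluster as a whole differed between libraries by less than counting error. Its summed RPKM was 45.5, 50.6 and 50.6 in the parent, subclone 1 and subclone 2. The fold of summed reads over the parent was 1.08 (0.965 to 1.22) in subclone 1 and 1.05 (0.940 to 1.18) in subclone 2. HOXA3 held 37.2%, 31.2% and 25.8% of all HOX RPKM, and its own ratios were 1.03 (0.886 to 1.2) and 0.886 (0.757 to 1.04). Without HOXA3, a sum chosen after the values were seen, HOXA had 23.3, 27.7 and 31.0 RPKM, and the fold of subclone 2 over the parent was 1.31 (1.1 to 1.56).

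HOXA13 differed between the subclones beyond counting error, as did HOXB8 and HOXC6 on fewer reads. It is the 5′-most gene of its cluster (GRCh38 chromosome 7, 27193503 to 27200106), with a known role in the distal limb, gut and genitourinary tract. Its level was 4.16 RPKM in the parent (47 reads, 3.06 to 5.54), 1.81 in subclone 1 (21 reads, 1.12 to 2.77) and 5.64 in subclone 2 (67 reads, 4.37 to 7.16). Subclone 1 was thus the low library, and its interval did not overlap those of the other two. The fold was 0.435 (0.247 to 0.742) for subclone 1 over the parent, at percentile 1.24 of the 11370 genes. It was 3.11 (1.88 to 5.35) for subclone 2 over subclone 1, at percentile 99.6. For subclone 2 over the parent it was 1.35 (0.919 to 2.01).

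The values of HOTTIP and HOXA11-AS, which lie near HOXA13, were also lowest in subclone 1. HOTTIP, a long non-coding RNA divergent from HOXA13, was listed at 0.413, 0.173 and 1.01 RPKM in the parent, subclone 1 and subclone 2, with no recovered reads and so no interval. HOXA11-AS, antisense to HOXA11, had 1.78, 1.07 and 3.12 RPKM (13, 8 and 24 reads). It was 2.93-fold (1.27 to 7.54) as high in subclone 2 as in subclone 1. Against the parent its folds were within counting error, at 0.599 (0.215 to 1.56) in subclone 1 and 1.75 (0.858 to 3.75) in subclone 2. HOXA11 itself had 5.79, 6.79 and 6.38 RPKM (69, 83 and 80 reads), with a ratio of 0.940 (0.683 to 1.29) for subclone 2 over subclone 1. Exons of HOXA13 overlap HOTTIP, and those of HOXA11 overlap HOXA11-AS, on the other strand. Whether counting used the strand is not given in the sources used here, so reads of these pairs cannot be told apart.

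HOXA2, which patterns the hindbrain and branchial arches, was higher in both subclones than in the parent. It had 4.35, 7.63 and 6.85 RPKM in the parent, subclone 1 and subclone 2 (35, 63 and 58 reads). The fold over the parent was 1.75 (1.14 to 2.73) in subclone 1 and 1.57 (1.02 to 2.47) in subclone 2, below the 2-fold limit in both. The subclones did not differ from each other beyond counting error, with a ratio of 0.898 (0.618 to 1.30). None of the annotated sequence of HOXA2 or HOXA13, read in stretches of 50 bases, occurred in another gene.

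HOXA4, HOXA5, HOXA6, HOXA7 and HOXA10 had folds whose intervals include 1 in all 3 comparisons. HOXA5, which acts in lung development, had 2.96, 4.19 and 4.73 RPKM (22, 32 and 37 reads). Its fold over the parent was 1.42 (0.798 to 2.56) and 1.60 (0.918 to 2.84). HOXA4 had 1.42, 2.13 and 2.20 RPKM (11, 17 and 18 reads). HOXA10, known from uterus and blood development, had 1.85, 2.29 and 2.32 RPKM (22, 28 and 29 reads). These 3 genes had their lowest value in the parent, within counting error. HOXA6 had 1.67, 1.08 and 1.58 RPKM on 4 to 6 reads. HOXA7 rested on 1, 6 and 4 reads.

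The HOXB cluster was higher in both subclones than in the parent. Its summed RPKM was 10.1, 17.7 and 19.6 in the parent, subclone 1 and subclone 2 (68, 135 and 152 reads). The fold of summed reads was 1.93 (1.43 to 2.63) for subclone 1 over the parent and 2.12 (1.59 to 2.87) for subclone 2. Between the subclones it was 1.1 (0.865 to 1.40). HOXB7, at 13.5%, 12.9% and 13.3% of all HOX RPKM, had folds of 1.17 (0.789 to 1.74) and 1.25 (0.855 to 1.85) over the parent. The other 6 listed HOXB genes together had 2.04, 8.27 and 9.45 RPKM (18, 75 and 86 reads), a split made after the values were seen. Their summed reads were 4.06-fold (2.40 to 7.21) and 4.54-fold (2.71 to 8.02) those of the parent.

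**Figure D4:**
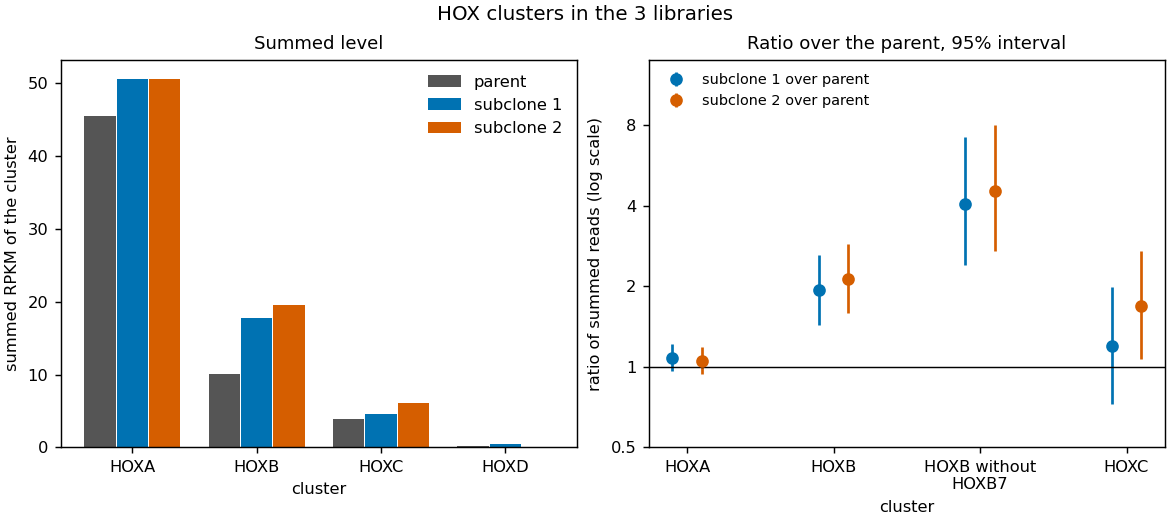
Summed RPKM of the HOXA, HOXB, HOXC and HOXD genes in each library (left) and ratio of summed reads over the parent with exact 95% intervals on a log scale (right), for HOXA, HOXB, HOXB without HOXB7, and HOXC. HOXB lies above 1 in both comparisons with the parent (1.93 and 2.12), HOXC in subclone 2 over the parent (1.69), and HOXA in none.

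HOXB5 (GRCh38 chromosome 17, 48591257 to 48593961), a gene of vascular and enteric development, had 0.487, 2.49 and 2.31 RPKM in the parent, subclone 1 and subclone 2. These rest on 4, 21 and 20 reads, and the parental interval (0.133 to 1.25) lay below those of subclone 1 (1.54 to 3.81) and subclone 2 (1.41 to 3.57). The fold over the parent was 5.11 (1.72 to 20.5) in subclone 1 and 4.75 (1.59 to 19.1) in subclone 2, at percentiles 98.9 and 98.7. The parent was the low library, and the subclones differed by a ratio of 0.929 (0.478 to 1.80).

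HOXB6 (48595751 to 48604992), the neighbour of HOXB5, had 1.19, 3.6 and 3.77 RPKM on 9, 28 and 30 reads. Its fold over the parent was 3.03 (1.39 to 7.30) in subclone 1 and 3.17 (1.47 to 7.58) in subclone 2, at percentiles 97.7 and 97.8. The parent was again the low library. Of the annotated sequence of HOXB6, 14.6% in stretches of 50 bases was shared with HOXB3 or HOXB7, against 0.0502% of that of HOXB5. Both genes overlap exons of HOXB-AS3 on the other strand, a gene listed at 0, 0.398 and 0.388 RPKM on 0, 1 and 1 reads.

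Near this pair, HOXB7 had more reads (50, 60 and 66), while HOXB3, HOXB4 and HOXB9 had fewer in both subclones. HOXB4, known from blood stem cells, had 0, 0.531 and 0.725 RPKM on 0, 5 and 7 reads. The exact interval of its fold over the parent, which had no read, began at 0.892 in subclone 1 and so included 1. In subclone 2 it began at 1.37. HOXB3 had 0.246, 0.658 and 0.642 RPKM on 4, 11 and 11 reads, with folds of 2.68 (0.794 to 11.5) and 2.61 (0.774 to 11.2). HOXB9 had 0, 5 and 2 reads.

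HOXB8 (48611377 to 48614939), known from myeloid cells, stood highest in subclone 2. It had 0.121, 0.591 and 1.85 RPKM in the parent, subclone 1 and subclone 2, on 1, 5 and 16 reads. The ratio of subclone 2 was 15.2 (2.36 to 637) over the parent and 3.12 (1.09 to 10.9) over subclone 1. With 1 read in the parent the size of the first ratio is close to undetermined. None of the sequence of HOXB8 was shared with another gene.

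The HOXC cluster was low, with 3.85, 4.61 and 6.12 RPKM in sum (31, 38 and 55 reads). The fold of summed reads was 1.19 (0.723 to 1.98) for subclone 1 over the parent, 1.69 (1.07 to 2.71) for subclone 2 over the parent and 1.41 (0.917 to 2.19) between the subclones. HOXC6 had 0.430, 0.523 and 1.63 RPKM on 4, 5 and 16 reads. It was 3.80-fold (1.23 to 15.6) as high in subclone 2 as in the parent and 3.12-fold (1.09 to 10.9) as high as in subclone 1. Thus HOXB8 and HOXC6 had their highest value in subclone 2, with the same 5 and 16 reads in the subclones. HOXC9 had 2.17, 2.38 and 2.45 RPKM (16, 18 and 19 reads), the highest values of the cluster.

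HOXC8, HOXC10, HOXC11, HOXC4 and HOXC5 had between 0 and 10 reads each, with intervals that include 1 throughout. HOXC8 had 5, 6 and 10 reads, HOXC10 2, 3 and 5, HOXC11 2, 3 and 4, HOXC4 1, 2 and 1, and HOXC5 1, 1 and 0. Exons of HOXC4, HOXC5, HOXC6 and HOXC9 overlap on the same strand, and HOXC4 and HOXC5 have the same window printed above. Of the annotated sequence of HOXC6, 13.1% was shared with these neighbours, and how the counting divided such reads is not given in the sources used here.

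HOXD was near silent, with 2, 5 and 1 reads in all. HOXD1 had 2, 2 and 0 reads and HOXD3 had 0, 3 and 1. The non-coding HAGLR, which overlaps both on the other strand, was higher than any coding gene of the cluster, with 3.15, 4.43 and 4.05 RPKM (54, 78 and 73 reads). Its fold over the parent was 1.41 (0.982 to 2.03) and 1.28 (0.891 to 1.86).

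Among the 18 non-coding genes of the HOX loci in the list, 5 were listed, 2 of them with a mean of at least 1 RPKM. HOTAIR, transcribed within HOXC and known as a partner of Polycomb, had 0.0953, 0.928 and 0.815 RPKM on 1, 10 and 9 reads. It lay below the filter, and its folds over the parent of 9.74 (1.39 to 423) and 8.55 (1.18 to 375) rest on 1 parental read.

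Of the 11 TALE genes, 8 had a mean of at least 1 RPKM and 1 was at least 2-fold changed. That was MEIS3, a HOX cofactor, with 5.02, 10.8 and 10.03 RPKM (49, 108 and 103 reads). It was 2.15-fold (1.52 to 3.07) as high in subclone 1 as in the parent, and 1.997-fold (1.41 to 2.87) in subclone 2. TGIF1 was the highest TALE gene with 43.4, 45.5 and 36.1 RPKM. PBX4 and PKNOX2 were not listed.

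Of 17 genes that flank the clusters, 10 passed the filter and 0 were at least 2-fold changed in any comparison. Their median log2 ratios were -0.02, -0.01 and 0.02. The highest by its mean was HIBADH, beside HOXA, with 108, 150 and 162 RPKM, although HNRNPA1 stood above it in the parent with 122 RPKM. Below 2-fold, SKAP2, HIBADH and CALCOCO2 lay above the parent beyond counting error in both subclones. The folds in subclone 1 and subclone 2 were 1.58 and 1.31 for SKAP2, and 1.39 and 1.497 for HIBADH. For CALCOCO2 they were 1.32 and 1.53. CBX5 and HNRNPA1 lay below the parent in both subclones, and MTX2 and LNPK in subclone 2 alone, LNPK at 0.687 (0.572 to 0.824). PRAC2, near HOXB13, had 0, 1 and 0 reads.

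Chromatin genes known to act on HOX loci made up 2 lists. All 16 Trithorax and MLL genes were listed, 15 passed the filter and 0 of these were at least 2-fold changed. The gene below the filter was MLLT3, a subunit of complexes that promote transcript elongation, with 0, 0.315 and 1.97 RPKM on 0, 5 and 32 reads. It was 6.24-fold (2.41 to 20.5) as high in subclone 2 as in subclone 1, and the interval of its fold over the parent began at 7.77 in subclone 2. MLLT3 was thus highest in subclone 2, as HOXB8 and HOXC6 were. All 20 Polycomb genes were listed, 19 passed the filter and 1 of these was at least 2-fold changed, namely CBX7, a subunit that reads H3K27 methylation. It had 1.18, 2.63 and 2.78 RPKM (21, 48 and 52 reads), 2.23-fold (1.31 to 3.91) and 2.35-fold (1.39 to 4.11) the parental level. Below 2-fold, EZH1, CBX2 and PCGF2 lay above the parent beyond counting error in both subclones, and JARID2, PHF19 and CBX6 below it. PCGF2, for example, had folds of 1.75 and 1.67, and PHF19 of 0.576 and 0.566. The highest genes by their mean were DPY30 with 68.2, 59.7 and 62.4 RPKM and SUZ12 with 34.2, 29.8 and 36.0 RPKM, although PHC2 stood above SUZ12 in subclone 1 with 31.8 RPKM.

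Of 18 retinoic acid genes, 11 passed the filter and 1 was at least 2-fold changed. CYP26B1, which degrades retinoic acid, had 0.737, 1.34 and 1.68 RPKM (15, 28 and 36 reads), 2.28-fold (1.22 to 4.48) as high in subclone 2 as in the parent. Its fold in subclone 1 was 1.82 (0.938 to 3.66). The highest gene of the list was ALDH1A1, a retinaldehyde dehydrogenase, with a mean of 827 RPKM. Median log2 ratios of the 11 genes were 0.44 and 0.48 in subclone 1 and subclone 2 over the parent, and -0.02 between the subclones. RARA, RXRA, CRABP2 and DHRS3 lay above the parent beyond counting error in both subclones, CRABP2 at 1.98-fold and 1.54-fold. RDH10 lay below the parent in subclone 1 (0.866) and above it in subclone 2 (1.69), and ALDH1A1 below it in subclone 2 (0.935).

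Of 10 other homeobox genes of the same class, 2 were listed. CDX2, an intestinal factor that acts on HOX genes, had 1.49, 2.18 and 3.14 RPKM (14, 21 and 31 reads). It was 2.10-fold (1.09 to 4.28) as high in subclone 2 as in the parent. PDX1 had 1, 1 and 7 reads.

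The HCC label was set beside 10 hepatocyte and HCC markers, all of them listed in at least 1 library, some on very few reads. Their summed level was 54.6, 149 and 139 RPKM in the parent, subclone 1 and subclone 2. ALB had 2.46, 49.5 and 68.8 RPKM, HNF4A 11.7, 11.9 and 16.0, and TTR 0, 0 and 1 reads. APOH, the highest of the list in the parent, had 30.0, 36.6 and 33.6 RPKM, and AFP 2.41, 4.16 and 4.27. APOA1 had 1, 3 and 2 reads and SERPINA1 1, 4 and 1. ALB, APOB (0.300, 1.23 and 4.17 RPKM) and FGB (1.66, 14.5 and 5.60 RPKM) were lowest in the parent, as the summed HOXB genes were. TF had another pattern, with 5.71, 30.3 and 5.88 RPKM, and was high in subclone 1 alone. Of 8 fibroblast markers 6 were listed, with sums of 15.7, 31.2 and 24.3 RPKM, most of it LUM with 10.1, 24.0 and 21.0 RPKM. DCN had 0.773, 4.42 and 2.75 RPKM, while COL3A1 ran the other way with 4.42, 2.21 and 0.463 RPKM. COL1A1, on 9, 11 and 1 reads, was also lower in subclone 2 than in the parent beyond counting error. PDGFRA and PDGFRB were not listed and COL1A2 had 1, 1 and 0 reads. The 4 endothelial markers summed to 4.74, 11.8 and 7.56 RPKM. Most of this was PECAM1, with 3.33, 9.81 and 4.46 RPKM and its highest value in subclone 1, and KDR, with 1.36, 1.93 and 3.08 RPKM and its highest value in subclone 2. VWF had 2, 1 and 1 reads and CDH5 0, 1 and 0. Of 5 blood markers, 3 were listed, with sums of 0.331, 1.04 and 0.108 RPKM. The 1.04 RPKM of subclone 1 was all CD14, which had 1, 8 and 0 reads, and PTPRC had 1, 0 and 0. The part of these levels in the HOX differences was not tested. In cultured cells taken in bulk, more cells with a transcript and more transcript per cell cannot be told apart.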

How the data were processed

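RNA of 3 HCCLM3 cell lines, 1 library each, was measured. The authors deposited RPKM per gene (Entrez number and symbol), on hg19 per the submitters' processing notes. The aligner, counter, annotation and strand setting are not given in the sources used here. Genes missing from a library were set to 0.

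HOX genes were those whose symbol is HOX, a letter A to D and a number. This rule uses the symbol and no measured value, but it and the gene lists were set with earlier results of these data known. Named are the genes with a mean of at least 1 RPKM, those whose counting interval excludes 1, and in the other lists the genes changed at least 2-fold and the highest gene. HOTAIR, HOTTIP, HOXB-AS3, HNRNPA1, MLLT3, PHC2, PRAC2 and PDX1 were named after their values were seen. So were SKAP2, CALCOCO2, CBX5, MTX2, LNPK, EZH1, CBX2, PCGF2, JARID2, PHF19 and CBX6. The same holds for RARA, RXRA, CRABP2, DHRS3 and RDH10, and for the markers AFP, APOH, APOA1, SERPINA1, COL1A1 and CD14. Some genes of these lists are counted in the sums but not reported here by name. Log2 ratios used RPKM plus 0.1. A change was a 2-fold difference, among 11370 of 16149 genes with a mean of at least 1 RPKM.

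Reads were recovered because RPKM is reads divided by length and library total. Library totals were set by 653 and 625 genes whose reads were equal in the parent and a subclone, and 90.5% of the 400 lowest parental values fell on whole lengths. The length of 1 member, HOXA6, was multiplied to reach a transcript length, and 18 of the 26 lengths came within 10% of a GENCODE 29 transcript. Intervals are exact Poisson (levels) and Clopper-Pearson (folds) at 95%. They cover counting error only. With 1 library per line no test was made. The procedure was tested on simulated data. Alternatives were other pseudocounts (0.01 and 1), scalings, filters and a limit of 1.5-fold. Python 3.11.15, numpy 2.4.6, pandas 2.3.3, scipy 1.17.1 and matplotlib 3.10.9 were used.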

Additional observations from a re-analysis of the deposited data

Results flagged for a closer look

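HOXA13 is given here because the values of the subclones lay on opposite sides of the parent, although that of subclone 2 lay within counting error of it. On the log2 scale, subclone 1 minus parent was -1.16, subclone 2 minus parent was 0.43 and subclone 2 minus subclone 1 was 1.59, on 47, 21 and 67 reads in the parent, subclone 1 and subclone 2. The difference between the subclones was not tested, since each has 1 library.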

How the results depend on the processing

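No paired analysis was possible because libraries number 1 per line, which also means that none could be left out. Across other pseudocounts and scalings, all 315 values of single HOX genes and 83 of 84 cluster sums stayed within their counting interval. At few reads that interval is so wide that staying within it says little. The log2 ratio of HOXB4 in subclone 2 over the parent, for example, ranged from 0.79 to 6.20. With all listed members as a further setting, the median log2 ratio of HOX genes ranged from 0.13 to 0.40 in subclone 1 over the parent. It ranged from 0.33 to 0.65 in subclone 2 over the parent and from -0.01 to 0.16 between the subclones. The log2 ratio of HOXA13 ranged from -1.28 to -0.88 in subclone 1 over the parent, and that of HOXB5 from 1.23 to 2.33. Counts of genes at least 2-fold changed depended on the filter. At a mean of at least 5 RPKM there were 0 higher in all 3 comparisons and 0 lower in subclone 1 over the parent, since fewer genes are left. Without a filter there were 8 higher in each subclone over the parent and 3 in subclone 2 over subclone 1, with 2 lower in subclone 2 over the parent and 2 over subclone 1. At 1.5-fold, 5 were higher in subclone 2 over the parent (1444 of all 11370 genes were), 3 in subclone 1 over the parent (1317 of all) and 1 in subclone 2 over subclone 1 (540 of all). With a pseudocount of 1, 0 were lower in subclone 1 over the parent, as HOXA13 fell short. The log2 ratio of the HOXA sum between the subclones, 0.00 as deposited, was 0.13 after division by ACTB, under which the median of all genes lay at 0.16 instead of 0.03. Without its highest member, a choice made after seeing the data, the ratio was 0.41 for HOXA in subclone 2 over the parent and 0.16 between the subclones, and 1.97 and 2.16 for HOXB in subclone 1 and subclone 2 over the parent. Depth limits the rest, as 14 listed HOX genes had a mean below 1 RPKM.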
